A study of Mus musculus with 6 samples.

Results

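The genes described here encode enzymes that break down the branched-chain amino acids leucine, isoleucine and valine, and a kinase (Bckdk) that inhibits this breakdown. They were measured in mouse E14 embryonic stem cells treated with low levels of histone deacetylase inhibitors. The 10 genes were Bcat1, Bcat2, Bckdha, Bckdhb, Bckdk, Dbt, Dld, Hibch, Hibadh and Mccc1, out of 19938 genes measured. Each gene was read from a probeset (a set of array probes summarised to a single value) whose annotation names that gene alone, and where a gene had more than 1 such probeset the brightest was used. The set was put together because Bcat1 and Bcat2 were lower with valproic acid, so the genes were chosen by measured values, the differences between valproic acid and control arrays, and these are given as a description without a test.

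E14 is an established mouse embryonic stem cell line, and all 6 samples were cultured over primary embryonic fibroblasts, which mitomycin C had stopped from dividing, in medium with serum and leukemia inhibitory factor, so RNA of these feeder cells can be part of every sample. Of the 6 samples, 2 were untreated (control), 2 received 0.5 mM valproic acid (VPA) and 2 received 0.2 mM sodium butyrate (NaBu), each read on a single-colour Affymetrix array at 16 h. VPA is a branched-chain and butyrate a straight-chain fatty acid, both inhibitors of histone deacetylases, and their doses differed, so their values stand side by side below and were not compared. The labels number the samples of each condition 1 and 2 but do not say whether they were separate cultures, so each p-value measures only the spread between these samples, which may be technical.

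Breakdown of the branched-chain amino acids begins with the transfer of their amino group to 2-oxoglutarate, which yields glutamate and a branched-chain oxo acid. Bcat1 does this in the cytosol and Bcat2 in mitochondria. The branched-chain oxo acid dehydrogenase complex of mitochondria then removes a carboxyl group in an irreversible step, under the control of an inhibitory kinase, after which leucine, isoleucine and valine follow separate routes towards acetyl-CoA, acetoacetate and succinyl-CoA. Bcat1 is expressed in few adult tissues, is common in embryonic and tumour cells and is a known target of the transcription factor Myc.

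Promoter sequences of 3 of the genes are shown. The results turn on both aminotransferases, and Hibch was added because it differs from them in base content. Its VPA differences had opposite signs in the replicate numbers, as had those of Bckdhb, Dbt, Dld, Hibadh and Mccc1. A link between base content and VPA differences was not tested. The sequences are the 250 bases before an annotated transcription start, from RefSeq on GRCm38.p6, 5′ to 3′ on the strand of the gene, and capitals mark matches to the motifs named below. The Bcat1 window lies at chr6:145076158-145076407 on the minus strand, the Bcat2 window at chr7:45569903-45570152 on the plus strand and the Hibch window at chr1:52844788-52845037 on the plus strand.
Bcat1: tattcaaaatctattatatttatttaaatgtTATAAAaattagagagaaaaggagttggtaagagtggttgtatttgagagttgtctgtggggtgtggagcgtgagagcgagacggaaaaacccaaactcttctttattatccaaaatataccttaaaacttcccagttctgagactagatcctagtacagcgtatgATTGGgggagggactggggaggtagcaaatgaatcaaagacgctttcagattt
Bcat2: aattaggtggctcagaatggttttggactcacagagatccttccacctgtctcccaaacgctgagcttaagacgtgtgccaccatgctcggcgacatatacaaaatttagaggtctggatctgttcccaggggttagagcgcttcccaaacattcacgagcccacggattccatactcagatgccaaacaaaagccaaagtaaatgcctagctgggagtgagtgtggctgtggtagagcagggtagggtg
Hibch: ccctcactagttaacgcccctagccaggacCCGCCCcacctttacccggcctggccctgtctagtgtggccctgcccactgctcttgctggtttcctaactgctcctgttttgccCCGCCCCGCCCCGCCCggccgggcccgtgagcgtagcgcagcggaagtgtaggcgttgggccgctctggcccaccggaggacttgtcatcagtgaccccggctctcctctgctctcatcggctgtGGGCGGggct

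Windows for 9 of the 10 genes were in the table, 12 windows in all, with none for Dbt. Motifs were searched on both strands, and matches may overlap: the E-box CACGTG, the amino acid response element core TGATGNAA, the cyclic AMP response element TGACGTCA, the GC box GGGCGG, the CCAAT box CCAAT and the TATA box TATAAA. The printed Bcat1 window had a GC content of 37.6% with 5 CpG dinucleotides, a TATA box match 219 bases and a CCAAT box match on the opposite strand 53 bases before the start. The printed Bcat2 window had 50.4% GC, 7 CpG dinucleotides and no match to any of these motifs. Hibch had the highest GC content of the 12 windows, with 68.0% GC, 18 CpG dinucleotides and 5 GC box matches, some of which overlap. The other genes with opposite VPA signs had windows of 63.2% and 36.4% GC (Bckdhb), 60.8% (Hibadh), 48.4% (Mccc1) and 43.6% (Dld). Over all 32851 windows the median was 52.4% GC and 6 CpG dinucleotides. A second annotated start of Bcat1 (chr6:145048813-145049062, 56.4% GC) and of Bcat2 (chr7:45571029-45571278, 50.4% GC) had no match either. The E-box occurred in 0 of the 12 windows and in 6.02% of all windows, the response element core in 0 and 3.45%, and the cyclic AMP element in 0 and 1.55%. GC boxes were in 4 of the 12 windows against 32.7% of all, CCAAT boxes in 6 against 33.8%, and TATA boxes in 2 against 12.4%.

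The arrays differed most by replicate number. The first principal component over all genes held 53.6% of the variance and gave the arrays numbered 1 positive and those numbered 2 negative scores in every condition. The median probeset lay between 5.01 and 5.09 in log2 on the 6 arrays. Stem cell markers were present, with Pou5f1 between 11.12 and 11.90, Nanog between 10.79 and 11.70 and Sox2 between 11.11 and 11.63 in log2. The 11 feeder fibroblast markers measured, of 12 written, had a mean log2 level of 6.36 and 7.11 on control arrays 1 and 2, 6.30 and 7.24 with VPA, and 6.50 and 7.42 with NaBu. Against 23.2% of all genes, 9 of the 11 were higher in replicate 2 in all 3 conditions. Among them Col1a1 spanned 8.18 to 9.66, Col1a2 7.72 to 9.12 and Col3a1 6.23 to 7.83 over the 6 arrays, while Dcn (7.15 to 10.10) and Lox (5.61 to 8.30), picked after their values were seen, had the widest spans of the list. Lists of endoderm (6 genes) and neural (5 genes) markers had mean levels of 4.81 to 4.95 and 6.03 to 6.38. In a culture of mixed cells, fewer cells of a type and less RNA per cell cannot be told apart.

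The cytosolic aminotransferase Bcat1 had log2 levels of 9.94 and 9.58 in control replicates 1 and 2, 9.34 and 9.07 with VPA, and 10.10 and 9.52 with NaBu. Both VPA arrays lay below both control arrays. The VPA difference from the same-numbered control was -0.60 in replicate 1 and -0.51 in replicate 2. The mean went from 9.76 ± 0.25 (SD, n = 2) in the control to 9.20 ± 0.19 (SD, n = 2) with VPA, a ratio of 0.680 on the linear scale.

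Bcat2, its mitochondrial counterpart, had log2 levels of 9.48 and 9.07 in the control, 8.96 and 8.54 with VPA, and 9.45 and 9.08 with NaBu. Its VPA arrays also lay below both control arrays, although VPA replicate 1 was only a little under control replicate 2. Within the replicate numbers the VPA difference was -0.52 and -0.54. Its mean was 9.28 ± 0.29 (SD, n = 2) in the control and 8.75 ± 0.30 (SD, n = 2) with VPA, a linear ratio of 0.694. With 2 arrays the SD is set by the gap between the replicate numbers, 0.41 in the control and 0.43 with VPA. Without control replicate 1 the Bcat2 difference was -0.32, and without VPA replicate 2 it was -0.31, as the means then hold unequal replicate numbers. A difference of -0.5 or lower in both replicate numbers was seen for 59 of the 19938 genes (0.296%) with VPA, and of the 10 breakdown genes for Bcat1 and Bcat2, the values that chose them.

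**Figure D1:**
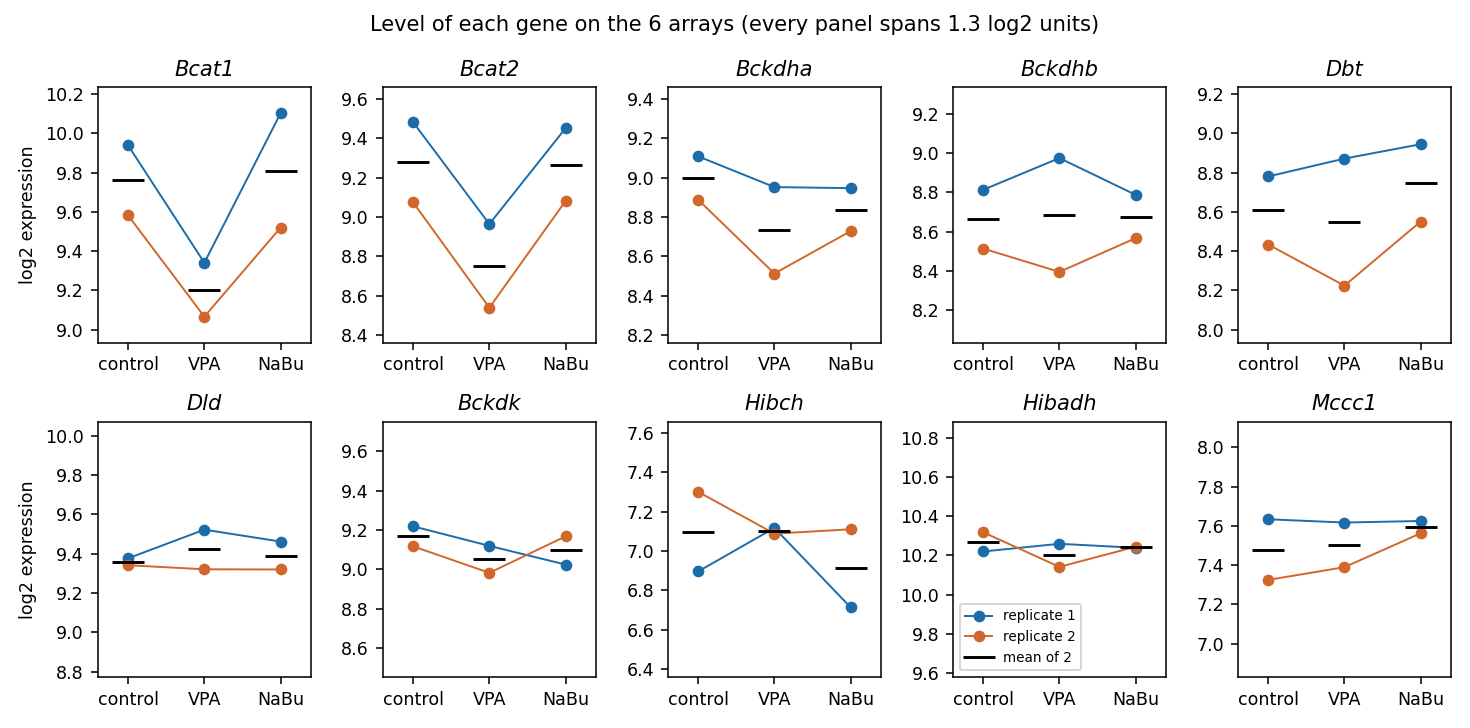
Log2 expression (vertical axes, each spanning 1.3 log2 units) of the 10 genes on the 6 arrays by condition (horizontal axes). Points are single arrays joined by replicate number and black dashes are means of 2. Bcat1 and Bcat2 dip with VPA in both replicate numbers (Bcat1 from 9.94 to 9.34 and from 9.58 to 9.07), while Hibadh lies between 10.14 and 10.32 on every array.

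The branched-chain oxo acid dehydrogenase complex follows the aminotransferases. Bckdha, the alpha subunit of its decarboxylase, had log2 levels of 9.11 and 8.89 in the control, 8.95 and 8.51 with VPA, and 8.95 and 8.73 with NaBu. Both treatments had values under the same-numbered control, but VPA replicate 1 lay above control replicate 2, so the arrays overlap. The VPA differences were -0.16 and -0.38, and their mean of -0.27 was -0.05 without VPA replicate 2, -0.16 without control replicate 1 and -0.49 without VPA replicate 1.

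The beta subunit Bckdhb had 8.81 and 8.51 in the control, 8.97 and 8.40 with VPA, and 8.79 and 8.57 with NaBu. Its VPA differences pointed apart, at 0.16 and -0.12. Dbt, the transacylase core to which the other components bind, had 8.78 and 8.43 in the control, 8.87 and 8.22 with VPA, and 8.94 and 8.55 with NaBu, with VPA differences of 0.09 and -0.21. In both genes the VPA arrays enclosed the control arrays from above and below. Dld, the dihydrolipoyl dehydrogenase that this complex shares with the pyruvate and 2-oxoglutarate dehydrogenases and the glycine cleavage system, had 9.38 and 9.34 in the control, 9.52 and 9.32 with VPA, and 9.46 and 9.32 with NaBu. Its VPA differences were 0.15 and -0.02.

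Bckdk, the kinase that phosphorylates and inhibits the complex, had 9.22 and 9.12 in the control, 9.12 and 8.98 with VPA, and 9.02 and 9.17 with NaBu. Its VPA differences of -0.10 and -0.13 were of similar size in both replicate numbers, and the lower control array and the higher VPA array nearly coincided.

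Hibch and Hibadh act late in valine breakdown, as a hydrolase that frees 3-hydroxyisobutyrate from coenzyme A and as the dehydrogenase that oxidises it. Hibch had 6.90 and 7.30 in the control, 7.12 and 7.09 with VPA, and 6.71 and 7.11 with NaBu. Its VPA differences of 0.22 and -0.21 cancelled in the mean, at 0.00. Hibadh had 10.22 and 10.32 in the control, 10.26 and 10.14 with VPA, and 10.24 and 10.24 with NaBu, which is the narrowest spread of the 10 genes over the 6 arrays. A second, dim Hibadh probeset (between 2.52 and 3.17 in log2) had a VPA mean difference of 0.18 against -0.07 in the main one. A further 2 probesets are annotated to both Top2a and Hibadh and were not used.

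Mccc1, the biotin-carrying subunit of the carboxylase in the leucine route, had 7.63 and 7.33 in the control, 7.62 and 7.39 with VPA, and 7.62 and 7.56 with NaBu. Its VPA differences were -0.02 and 0.06. Among the 10 genes, 4 were lower with VPA in both replicate numbers (Bcat1, Bcat2, Bckdha and the inhibitory kinase Bckdk), as were 28.0% of all genes. Higher values in both were seen for 0 of the 10, against 32.0%. Arrays that did not overlap with the control, on the lower side, were seen for 2 of the 10 genes and for 15.6% of all genes, and on the higher side for 0 against 19.1%. The median difference of the 10 genes was -0.06, beside 0.01 over all genes, and it was 0.01 in replicate 1 and -0.19 in replicate 2. These counts use the comparison that chose the genes.

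**Figure D2:**
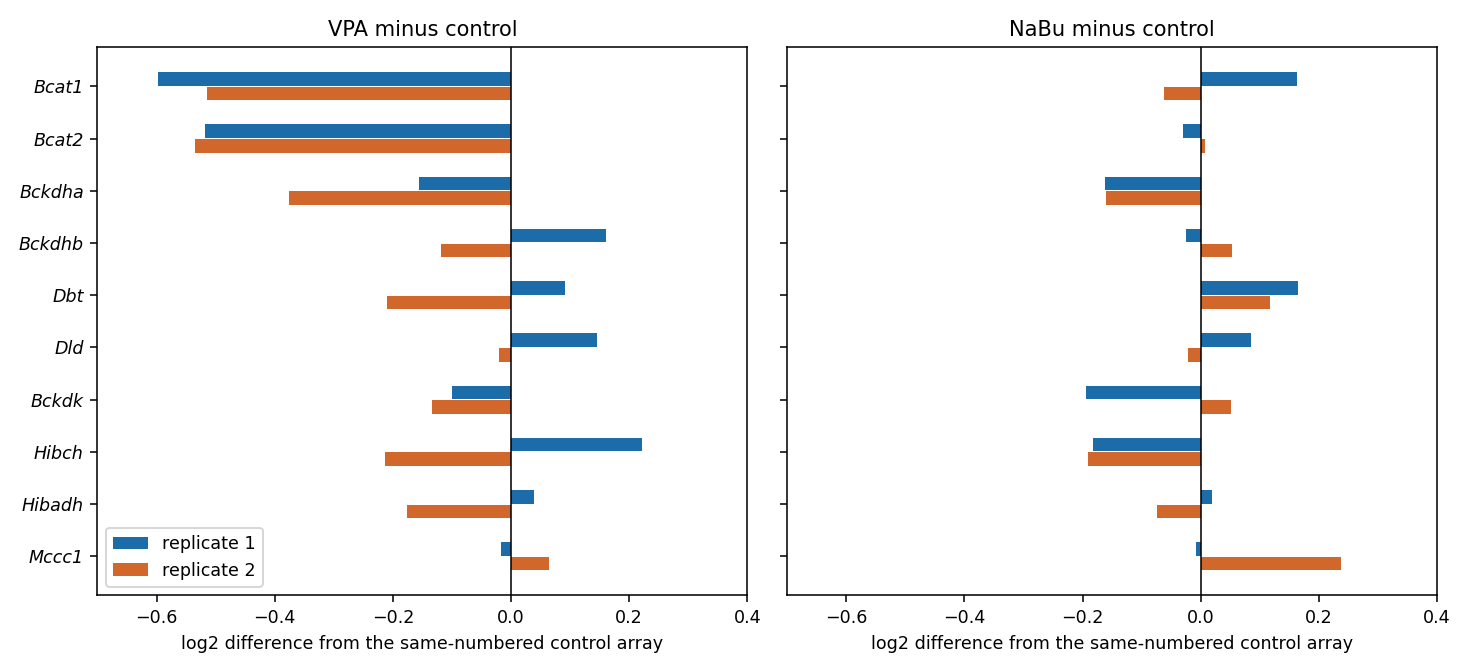
Log2 difference of VPA (left) and NaBu (right) from the control array of the same replicate number (horizontal axes), for each of the 10 genes (vertical axis). Each bar is a difference between single arrays. With VPA the bars of Bcat1 (-0.60 and -0.51) and Bcat2 (-0.52 and -0.54) are the longest, and with NaBu all bars lie between -0.19 and 0.24.

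The markers of other cells and of the stem cell state moved as follows in the VPA comparison. The feeder markers had a mean difference of -0.06 in replicate 1 and 0.13 in replicate 2, with 3 and 8 of 11 above the control. Of the 11, 1 was higher and 1 lower in both replicate numbers, against 32.0% and 28.0% of all genes. The 10 stem cell markers had means of -0.39 and -0.21, with 9 of 10 lower in both replicate numbers, against 28.0% of all genes. Pou5f1, the lowest of the 10, had a mean difference of -0.64, while Nanog stood at -0.46 and Sox2 at -0.02. The part of feeder RNA and of stem cell content or state in the Bcat1 and Bcat2 values was not tested.

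With NaBu the 10 genes were tested in a model fitted with limma over all 19938 genes, with p-values adjusted by the Benjamini-Hochberg method. This comparison uses the same control arrays as the one that chose the genes, so it is not fully independent of the choice. limma called 0 of the 10 genes and 0 of 19938 (0.0%) at an adjusted p under 0.05, with 311 genes (1.56%) at an unadjusted p under 0.05. All 10 adjusted p-values in limma were 1.00.

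Bcat1 stood at 0.16 and -0.06 with NaBu in replicates 1 and 2, with a mean of 0.05 and a 95% interval from the model of -0.52 to 0.62. Bcat2 stood at -0.03 and 0.01, with a mean of -0.01 (95% interval -0.55 to 0.53). Both genes thus had NaBu arrays on either side of the same-numbered control. These intervals reach past 0.5 in both directions and include the gap between the replicate numbers. With the replicate number as a block they were -0.22 to 0.33 for Bcat1 and -0.25 to 0.23 for Bcat2. Lower values in both replicate numbers were found for 2 genes, Bckdha (-0.16 and -0.16; 95% interval of the mean -0.61 to 0.29) and Hibch (-0.18 and -0.19; 95% interval -0.65 to 0.28). That is 2 of 10, against 23.1% of all genes. Dbt was the 1 gene higher in both (0.16 and 0.12; 95% interval -0.49 to 0.77), against 29.1% of all genes. Intervals with the block were -0.42 to 0.10 for Bckdha, -0.50 to 0.13 for Hibch and -0.14 to 0.42 for Dbt.

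The remaining 5 genes had NaBu means between -0.07 (Bckdk) and 0.11 (Mccc1). None of the 10 had NaBu arrays clear of the control arrays, where 11.2% of all genes did so on the lower and 12.7% on the higher side. Differences of 0.5 or more in both replicate numbers were likewise seen for 0 of the 10, and for 0.0552% of all genes in each direction. The median of the 10 genes was 0.00 with NaBu, beside 0.01 over all genes. Feeder markers had a mean difference of 0.14 in replicate 1 and 0.31 in replicate 2 with NaBu, with 9 and 11 of 11 above the control. Against 29.1% of all genes, 9 of the 11 were higher in both replicate numbers. The part of feeder RNA in the NaBu values of the 10 genes was not tested.

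The replicate number itself separated most of these genes. Replicate 1 was above replicate 2 in all 3 conditions for 7 of the 10 genes (Bcat1, Bcat2, Bckdha, Bckdhb, Dbt, Dld and Mccc1) and below it for 0, against 23.5% and 23.2% of all genes. The gap for Bcat2 was 0.41 in the control, 0.43 with VPA and 0.37 with NaBu, so it was nearly the same in every condition. For Bcat1 it was 0.36, 0.27 and 0.58, and for Dbt 0.35, 0.65 and 0.39. Hibch went the other way in the control (-0.41) and with NaBu (-0.40) but not with VPA (0.03). Feeder markers were mostly higher in replicate 2, opposite to the 7 genes, and whether feeder RNA takes part in the gap of the breakdown genes was not tested.

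**Figure D3:**
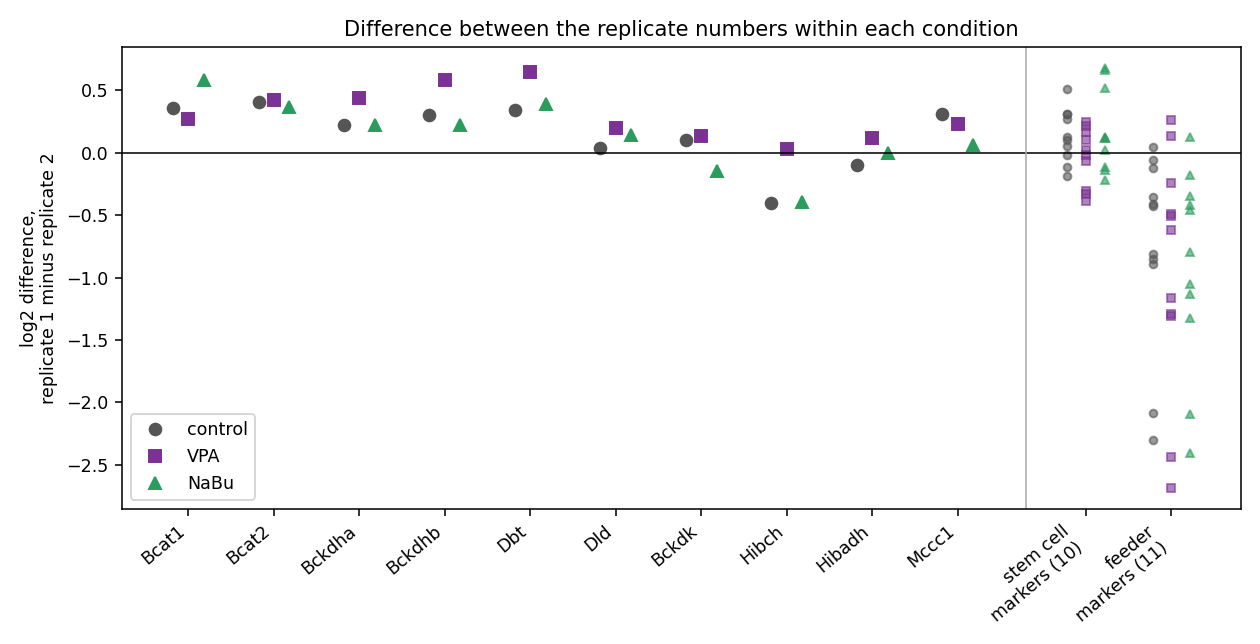
Log2 difference of replicate 1 minus replicate 2 within each condition (vertical axis) for the 10 genes and, right of the line, for 10 stem cell and 11 feeder fibroblast markers. Circles are control, squares VPA and triangles NaBu. Bcat1, Bcat2, Bckdha, Bckdhb, Dbt, Dld and Mccc1 lie above 0 in all 3 conditions, and most feeder markers lie below 0.

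Other genes of the pathway and its neighbours came from 9 lists with 91 written and 89 measured genes. limma called 0 of the 89 in either comparison, with adjusted p-values between 0.964 and 0.999 for VPA and at 1.00 for NaBu, and with 7 and 1 genes at an unadjusted p under 0.05. Over all 19938 genes limma also called 0 (0.0%) for VPA, with 981 genes (4.92%) at an unadjusted p under 0.05. Of the 89 genes, 41 were higher with VPA in both replicate numbers (46.1%, against 32.0% of all genes) and 18 lower in both (20.2%, against 28.0%). With NaBu 38 were higher in both (42.7%, against 29.1%) and 10 lower in both (11.2%, against 23.1%). Their median difference was 0.08 with VPA and 0.04 with NaBu. The lists were not drawn at random and their genes are not independent, so these shares are a description.

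Enzymes of the leucine route were represented by 4 of 5 written genes, with a median of 0.04 for VPA and 0.02 for NaBu. Mccc2, the partner subunit of Mccc1, was lowest for both compounds (-0.16 with VPA and -0.07 with NaBu), and the isovaleryl-CoA dehydrogenase Ivd was highest (0.11 and 0.16). The 9 genes of the isoleucine and valine routes had a VPA median of 0.25, and the median was 0.41 in replicate 1 and -0.04 in replicate 2. Within this list Acat1, the mitochondrial acetoacetyl-CoA thiolase, was highest with VPA at 0.46 (95% interval -0.02 to 0.95, limma adjusted p 0.964). Its log2 levels were 7.79 and 8.11 in the control and 8.53 and 8.29 with VPA. Echs1, the short-chain enoyl-CoA hydratase, was lowest at -0.38 (95% interval -0.66 to -0.10, limma adjusted p 0.964), with 8.70 and 8.81 in the control, 8.34 and 8.41 with VPA, and 8.53 and 8.62 with NaBu. Echs1 arrays of both compounds lay below both control arrays, as was so for 15.6% of all genes with VPA and 11.2% with NaBu. The NaBu median of this list was -0.04, with the same genes lowest (Echs1, -0.18) and highest (Acat1, 0.26).

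The route from propionyl-CoA to succinyl-CoA had 8 measured genes and medians of -0.01 with VPA and 0.04 with NaBu. Pcca, the biotin-carrying subunit of propionyl-CoA carboxylase, was highest with VPA at 0.34 (95% interval -0.23 to 0.91), with 8.54 in VPA replicate 1 and between 7.80 and 8.06 on the other arrays. Mmachc, which processes vitamin B12 on its way to the mutase, was lowest for both compounds, at -0.36 with VPA and -0.22 with NaBu. The highest with NaBu was Mmaa at 0.14, a chaperone of the same mutase. Mmaa was dim, with a control mean of 5.26 in log2, under the median gene (5.71 to 5.79).

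**Figure D4:**
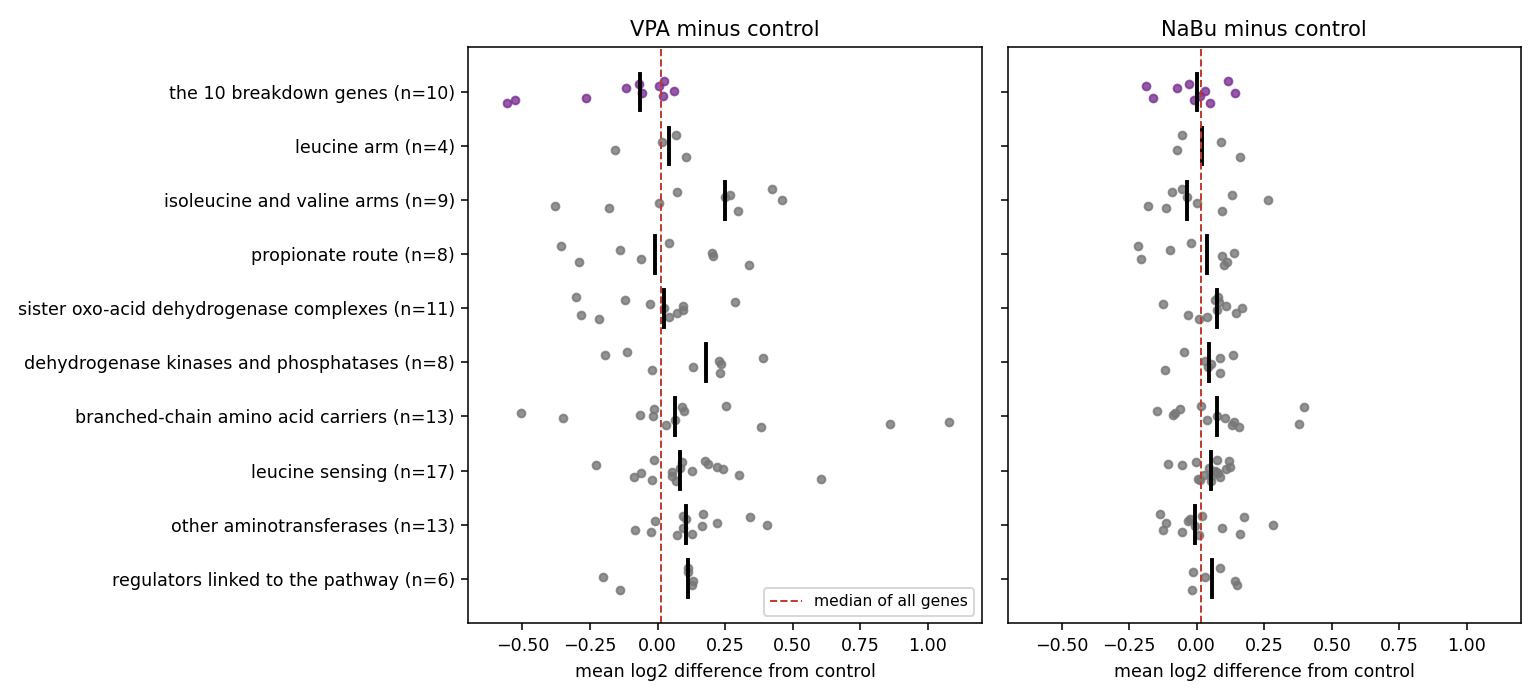
Mean log2 difference from control (horizontal axes) for VPA (left) and NaBu (right) in the 10 breakdown genes (purple) and 9 lists of other genes (grey). Each point is a gene, black bars are list medians and the dashed line is the median of all genes (0.01 in both). Bcat1 (-0.56) and Bcat2 (-0.53) are the leftmost points with VPA, next to the carrier Slc6a15 (-0.50), and the carrier Slc7a8 (1.08) is the rightmost.

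Sister complexes that use Dld or the same chemistry, with 11 genes, had medians of 0.03 with VPA and 0.07 with NaBu. The glycine cleavage system supplied both extremes with VPA, as Gldc stood at 0.29 and Gcsh at -0.30. With NaBu they were Ogdhl at 0.17, a relative of 2-oxoglutarate dehydrogenase, and Dhtkd1 at -0.12. The kinases and phosphatases of these complexes (8 genes) had medians of 0.18 with VPA and 0.05 with NaBu. Among them Pdp1, a phosphatase that activates pyruvate dehydrogenase, was highest with VPA at 0.39 (95% interval 0.06 to 0.72, limma adjusted p 0.964), and Pdp2 was lowest at -0.20. Pdk2 was lowest with NaBu at -0.12 and Pdp2 highest at 0.13. Pdp2 was dim, with a control mean of 5.55 in log2, under the median gene (5.71 to 5.79). Ppm1k, the phosphatase that opposes Bckdk and was picked after its values were seen, had VPA differences of 0.40 and 0.05. Its VPA arrays did not overlap with the control on the higher side, as was so for 19.1% of all genes. The margin was small, with 6.81 in VPA replicate 2 and 6.76 in control replicate 2.

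The 13 carriers that can transport branched-chain amino acids across the cell or mitochondrial membrane had medians of 0.07 with VPA and 0.08 with NaBu. Slc7a8, a light chain of the large neutral amino acid exchangers, had 4.50 and 4.54 in the control, 6.16 and 5.04 with VPA, and 4.43 and 4.89 with NaBu. Its VPA mean difference of 1.08 (95% interval 0.21 to 1.95, limma adjusted p 0.964) was made up of 1.66 and 0.499. Both VPA arrays lay above both control arrays, as was so for 19.1% of all genes. Slc7a7, singled out after its values were seen, was the 1 gene of the 89 that was higher by at least 0.5 in both replicate numbers (1.21 and 0.51), as were 0.386% of all genes, and Slc7a8 missed that bound narrowly. The Slc7a7 NaBu differences were 0.42 and 0.33. Slc6a15 was lowest with VPA at -0.50, but control replicate 1 stood at 6.94 against 5.67 in control replicate 2, and the within-number differences were -1.13 and 0.12. With NaBu the extremes were Slc6a20a (0.40) and Slc6a17 (-0.15). Slc7a8, Slc6a20a and Slc6a17 were dim, with control means of 4.52, 3.81 and 4.97 in log2. The median gene lay between 5.71 and 5.79 on the 6 arrays, and 8 of the 13 carriers were at or above the median level.

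Regulators linked to the pathway numbered 6 genes, with medians of 0.11 for VPA and 0.06 for NaBu. Myc was lowest with VPA at -0.20, with mean log2 levels of 7.97 ± 0.61 (SD, n = 2) in the control and 7.76 ± 0.34 (SD, n = 2) with VPA. Its replicate numbers lay 0.86 apart in the control, and within the numbers the VPA difference was -0.39 and -0.01. Ppara, a receptor for fatty acids, was highest with VPA at 0.13. With NaBu Ppargc1a, a coactivator of mitochondrial genes, was highest at 0.15 and the transcription factor Klf15, known to drive branched-chain amino acid breakdown, lowest at -0.02. Ppara and Ppargc1a were dim, with control means of 4.35 and 3.28 in log2, under the median gene (5.71 to 5.79).

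The genes whose levels followed those of the aminotransferases most closely over the 6 arrays were found by Pearson correlation. The search covered 3766 genes that varied by 0.5 or more in log2 and were not below the median in mean level. For Bcat1 they were Soga3 (r = 0.996), Zfp423 (0.994), Orc5 (0.992), Hspbap1 (0.992) and Sltm (0.988). For Bcat2 they were Kif22 (0.998), Wdr76 (0.995), Ydjc (0.995), Ccdc43 (0.992) and Tgm3 (0.991). The VPA differences in replicates 1 and 2 were -0.74 and -0.66 for Soga3, -0.72 and -0.53 for the zinc finger factor Zfp423, -0.28 and -0.30 for the kinesin Kif22, and -0.57 and -0.84 for the transglutaminase Tgm3. Bcat1 and Bcat2 correlated with each other at r = 0.971, which placed Bcat2 at rank 35 for Bcat1 and Bcat1 at rank 44 for Bcat2. These values over 6 arrays are a description, since all genes share the arrays and the split by replicate number. The 6 arrays also include the VPA and control arrays whose differences chose Bcat1 and Bcat2. A high r between these 2 genes, and neighbours that were lower with VPA, therefore follow in part from that choice.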

How the data were processed

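The authors deposited a log2 value for each probeset and array. The submitters' processing notes name RMA and Expression Console 1.1, and the sources used here do not give the settings or the genome build. RMA equalises arrays, so a shift of most genes together would be removed. No depth exists for arrays, and their number limits the precision. Of 35556 probesets, 21789 carried a single gene symbol, 1621 several and 12146 were not listed in the annotation. The brightest probeset stood for each of 999 genes with several, leaving 19938 genes, of which 19919 symbols were in RefSeq.

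Differences were estimated in R 4.3.3 by limma 3.58.1 (lmFit, eBayes, 1 mean per group, 6 arrays, 3 residual degrees of freedom), with Benjamini-Hochberg adjustment over all genes and a threshold of 0.05. Exact permutation (two-sided) cannot give a p below 0.333 for groups of 2 and was left out. Differences within a replicate number are between single arrays. The procedure was tested on simulated data, with changes larger than any difference of the 10 genes. That test does not show whether changes as small as theirs would be found. Members and lists were chosen with earlier results of these data known. Genes named by rule were the 10 members, the lowest and highest gene of each list for each compound, the 5 genes most correlated with Bcat1 and Bcat2, and 6 markers (Pou5f1, Nanog, Sox2, Col1a1, Col1a2 and Col3a1). Outside this rule, Dcn, Lox, Ppm1k and Slc7a7 were named after their values were seen. Alternatives were a replicate block, median centring, quantile normalization, a filter on dim genes, averaged probesets, an intensity trend and leaving out each array.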

Additional observations from a re-analysis of the deposited data

How the results depend on the processing

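limma called 0 genes for VPA and for NaBu under each of the 12 alternatives run. With the replicate number as a replicate block (2 residual degrees of freedom) it called 0 genes for both, with 2636 and 916 genes at an unadjusted p under 0.05. Over all genes the smallest limma adjusted p for VPA was 0.201 with the block and 0.964 in the main model. The main model, without the block, gave the intervals and p-values printed for the pathway lists. Differences are identical in the block model, and its adjusted p-values of the 10 genes for NaBu were 0.994 to 0.997. Their 95% intervals for NaBu were narrower, with standard errors of 0.106 to 0.137 in place of 0.116 to 0.259. Deviations from the group mean correlated over genes between arrays of the same number (r = 0.558 between control and VPA, 0.693 between control and NaBu, 0.567 between VPA and NaBu), but the labels do not say that a number marks a shared culture or day. The median of the 10 genes with NaBu was -0.021 after quantile normalization and 0.023 with averaged probesets, and ran from -0.082 to 0.11 when each array was left out. With VPA it ran from -0.23 to 0.0045. The count of genes lower in both replicate numbers with NaBu was 4 after quantile normalization, against 2. Single NaBu differences near 0 turned sign: Bckdhb was -0.0061 after quantile normalization and Hibadh 0.086 with averaged probesets. Leaving out each array gave NaBu ranges of -0.24 to 0.34 for Bcat1, -0.22 to 0.19 for Bcat2, -0.27 to -0.05 for Bckdha, -0.14 to -0.0001 for Bckdk, -0.14 to 0.16 for Bckdhb, -0.056 to 0.34 for Dbt, -0.040 to 0.10 for Dld, -0.39 to 0.016 for Hibch, -0.076 to 0.021 for Hibadh and -0.040 to 0.27 for Mccc1. The VPA differences that chose the genes ran from -0.73 to -0.38 for Bcat1 and from -0.74 to -0.31 for Bcat2 when each array was left out. The causes were not tested.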

Other observations

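Leucine sensing acts upstream of mTOR, a kinase that couples amino acid supply to growth, and 17 of 18 written genes were measured. Sesn3, a member of the sestrin family of which Sesn2 is a leucine sensor, was highest with VPA, with log2 levels of 7.40 and 7.70 in the control and 8.32 and 7.99 with VPA. Its mean difference was 0.60 (0.92 and 0.29 within the replicate numbers, limma adjusted p 0.964), and both VPA arrays lay above the control arrays. Rragb, a Rag GTPase, was lowest with VPA at -0.23. With NaBu the extremes were Rraga at 0.12 and Rragc at -0.10. Arrays clear of the control on the higher side with VPA were seen for 7 of the 17 genes, against 19.1% of all genes.

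Aminotransferases other than the branched-chain ones gave a VPA median of 0.11 and a NaBu median of -0.01 over 13 genes. Oat, which acts on ornithine, was highest for both compounds, at 0.40 with VPA (95% interval -0.05 to 0.86) and 0.28 with NaBu. Its log2 levels were 8.78 and 8.62 in the control, 9.36 and 8.84 with VPA, and 8.98 and 8.98 with NaBu. The alanine aminotransferase Gpt2 was lowest with VPA at -0.09 and Aadat lowest with NaBu at -0.14. Aadat was dim, with a control mean of 3.29 in log2, and 8 of the 13 genes were at or above the median level.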
